A study of Mus musculus with 8 samples.

Results

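mmu-miR-210 is a mouse miRNA whose hairpin gives 2 mature products, miR-210-3p and miR-210-5p, and these are 2 of the 1099 mature miRNAs in the deposited table. Both rows were taken by name. miR-210 was chosen by its measured values, namely the lower level of both arms with doxycycline (Dox), so its Dox ratios are given as a description with no test. The libraries are small RNA libraries of KH2-DGCR8 cells, mouse embryonic stem cells of the KH2 line in which Dox is used to overexpress DGCR8, collected at days 0, 1, 2 and 4 of embryoid body differentiation, in which stem cells form aggregates and leave pluripotency. Each day has 1 library without Dox and 1 with Dox, giving 4 libraries per treatment and no replicate of any condition. All 8 share the KH2-DGCR8 genotype, so that Dox itself and the transgene it induces cannot be told apart here. The labels do not say how long Dox was given, whether the line is 1 clone or whether libraries came from separate cultures. DGCR8 is the RNA-binding partner of DROSHA in the Microprocessor, which cuts hairpins out of primary miRNA transcripts, and the series set out to measure what more DGCR8 does to miRNA levels. Values are RPM, miRNA reads scaled to the same total in every library.

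miR-210 is known as the most widely shared miRNA response to low oxygen. Hypoxia-inducible factors (HIF), which accumulate when oxygen is scarce, switch on its transcription, and the 3p arm then represses genes of mitochondrial iron-sulphur cluster assembly such as Iscu, together with Gpd1l and the ephrin Efna3. The sequences below show the part that sets its targets, the seed (bases 2 to 8, in capitals in the mature sequences), and, in the hairpin, both mature arms in capitals. They come from the RefSeq table on GRCm38.p6 (mm10), 5′ to 3′.
miR-210-3p: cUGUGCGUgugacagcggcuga
miR-210-5p: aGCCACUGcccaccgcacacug
Mir210 hairpin: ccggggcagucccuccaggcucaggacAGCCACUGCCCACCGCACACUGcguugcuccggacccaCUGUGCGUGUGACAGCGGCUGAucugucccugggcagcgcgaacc

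The hairpin lies on chromosome 7 from 141221384 to 141221493, minus strand, with the 3p arm at 141221407 to 141221428 and the 5p arm at 141221445 to 141221466. In the GENCODE M21 annotation 0 other genes overlap it: it is intergenic, 2726 bases from the protein-coding gene Rassf7 and 7291 bases from Phrf1. No other miRNA shares either seed among the 1679 mature sequences of the RefSeq table. The nearest other miRNA of the deposited table, miR-7063-5p, is 399 kb away and averaged 0.75 RPM. A CG dinucleotide in the seed, which miR-210-3p has, was present in 13.0% of the mature sequences. miR-210 is also rich in G and C: 63.6% of the 3p arm and 68.2% of the 5p arm, where 82.4% and 92.1% of mature sequences were lower. For the whole hairpin the share was 69.1%, higher than in 96.7% of 1005 hairpins. Its predicted folding energy of -48.0 kcal/mol, or -0.436 per base, was near the median of all hairpins (-0.406). The motif UGUG, searched on the transcribed strand and counted with overlaps, occurred 2 times in the hairpin, at bases 67 and 73, which are bases 2 and 8 of the 3p arm and not in the 16 bases between the arms. UGUG was present somewhere in 44.9% of hairpins.

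The libraries rested on 362483 to 541342 implied reads, worked out from the steps between low values. Embryonic stem cell markers, 6 of 6 listed, summed to 287563 RPM at day 0 without Dox and 261421 with Dox, and to 125659 and 153034 at day 4. This sum joins miR-290 cluster members with miR-302b-3p and miR-302d-3p, and its members may differ in course. Of the markers of other cell types, the 7 fibroblast or feeder miRNAs in the table summed to between 5219 and 6341 RPM without Dox and between 5174 and 7031 with Dox. The sums were between 3631 and 7389 against between 3045 and 5231 for the neural pair miR-9-5p and miR-124-3p, and between 843 and 1170 against between 832 and 1600 for both arms of the vessel miRNA miR-126a. Blood markers reached at most 59 RPM, muscle markers at most 130 and the liver miRNA miR-122-5p at most 4. The neural sum was lower with Dox on each of the 4 days, as miR-210-3p was, and the part of cell type makeup in the miR-210 values was not tested. In bulk RNA, fewer cells that make a miRNA and less of it per cell cannot be told apart.

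miR-210-3p, the arm that is loaded and represses targets, stood at 970, 271, 332 and 988 RPM at days 0, 1, 2 and 4 without Dox. With Dox it stood at 93, 106, 136 and 65 RPM. The treatments did not overlap: the lowest library without Dox, at day 1, was above the highest with Dox, at day 2. The mean was 640 RPM ± 392 (SD over 4 days) without Dox and 100 ± 29.5 with Dox. These values rested on 400, 122, 140 and 358 implied reads without Dox and 34, 55, 64 and 35 with Dox. In abundance miR-210-3p was the 89th, 169th, 168th and 115th miRNA of its library without Dox, and the 237th, 263rd, 239th and 332nd with Dox.

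In order of level, days 4 and 0 without Dox came first and did not differ beyond counting error, with a ratio of 1.02 (95% counting interval 0.881 to 1.18). Days 2 and 1 without Dox followed, at a ratio of 1.22 (0.954 to 1.57). The Dox libraries of days 2, 1, 0 and 4 were lowest, and neighbours among them did not differ beyond counting error either: 1.28 (0.880 to 1.87) for day 2 over day 1, 1.14 (0.732 to 1.81) for day 1 over day 0 and 0.696 (0.421 to 1.15) for day 4 over day 0. Day 4 with Dox was below day 2 with Dox, at a ratio of 0.475 (0.305 to 0.728). Counting intervals are exact, computed from the implied reads, and cover no difference between cultures.

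**Figure D1:**
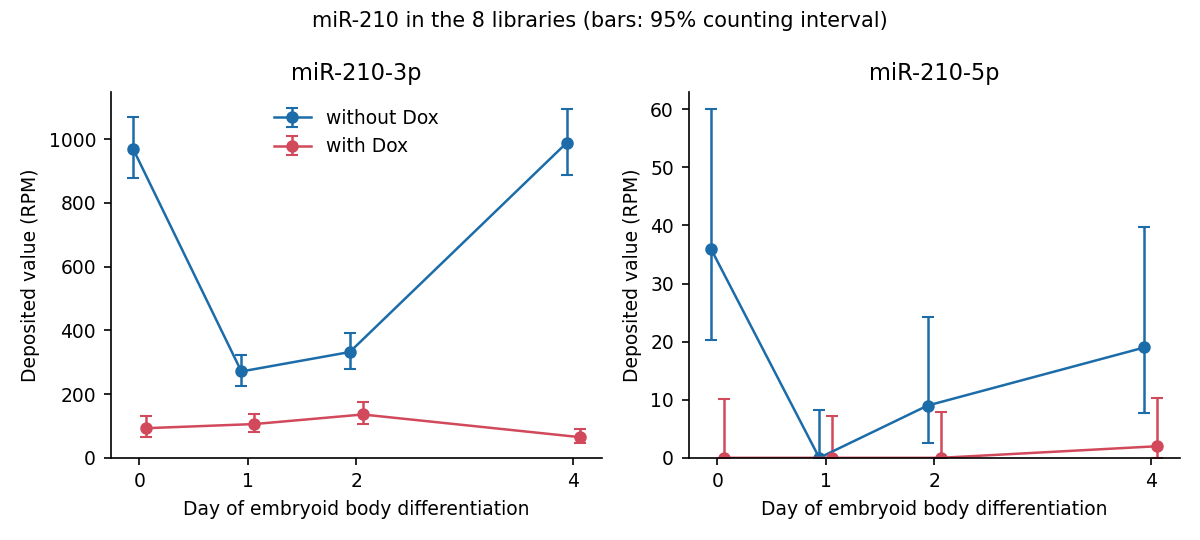
Deposited value (RPM) of miR-210-3p (left) and miR-210-5p (right) by day of embryoid body differentiation, 1 library per point, without Dox (blue) and with Dox (red); bars are 95% exact binomial counting intervals. Without Dox miR-210-3p was at 970 and 988 RPM at days 0 and 4 and at 271 and 332 between them, while with Dox it lay between 65 and 136.

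By day, miR-210-3p was lower with Dox by 10.4-fold at day 0 (95% counting interval 7.34 to 15.3), 2.55-fold at day 1 (1.84 to 3.58), 2.44-fold at day 2 (1.80 to 3.33) and 15.3-fold at day 4 (10.8 to 22.3). The intervals of days 0 and 4 lay wholly above those of days 1 and 2, so the gap was wide at the outer days and narrow at the middle ones. On the log2(RPM + 1) scale the ratios were -3.37, -1.35, -1.28 and -3.91, with a mean of -2.48 and an SD over the 4 days of 1.36. Without the day 4 pair the mean was -2.00 and without the day 2 pair it was -2.87.

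The miR-210-3p ratios were then ranked among the 499 miRNAs that averaged 10 RPM or more, itself included. The median of the others was 0.02, 0.07, -0.09 and -0.05 at days 0, 1, 2 and 4. From the lowest, miR-210-3p ranked 2 at day 0, 13 at day 1, 33 at day 2 and 6 at day 4. Among the 271 miRNAs averaging 100 RPM or more, where ratios rest on more reads, the ranks were 1, 1, 4 and 3. A ratio at least 2-fold lower with Dox, which miR-210-3p had on every day, was found in 9.62% of the 499 at day 0, 4.41% at day 1, 9.42% at day 2 and 11.8% at day 4. On all 4 days it was found in 0.401% (2 of 499), miR-210-3p and miR-449a-5p, a miR-34 family member. Every Dox library was below every library without Dox in 1% (5 of 499). These were miR-210-3p, miR-449a-5p, miR-92a-1-5p of the miR-17 to miR-92a cluster, and miR-203-3p and miR-200a-3p, which are known from epithelia. A ratio whose counting interval excluded no change, in the lower direction and on each day, was found for 0.601% (3 of 499), miR-210-3p, miR-9-5p and miR-1983. These miRNAs were named after their values were seen, and since miR-210 was chosen on this contrast its place among them supports nothing further.

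**Figure D2:**
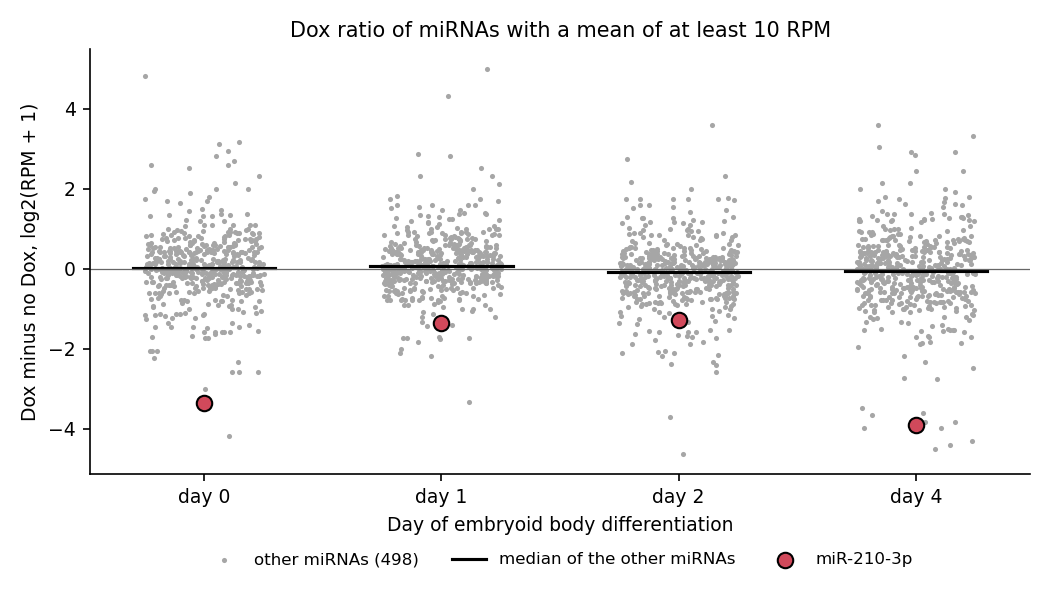
Dox minus no Dox difference in log2(RPM + 1) at each day for the 499 miRNAs averaging 10 RPM or more, each point 1 miRNA from 1 library per treatment, with the median of the other miRNAs as a black bar and miR-210-3p in red. miR-210-3p was at -3.37, -1.35, -1.28 and -3.91, near the lower edge at days 0 and 4 and closer to the other miRNAs at days 1 and 2.

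By the mean over days, the 5 miRNAs that came after miR-210-3p from the lowest were miR-302c-5p (-2.47), miR-449a-5p (-2.04), miR-133a-3p (-1.90), miR-302c-3p (-1.68) and miR-302a-5p (-1.52). The miR-302 cluster is transcribed in epiblast-like pluripotent cells and miR-133a in muscle. The 2 miRNAs nearest to miR-210-3p share no seed with it, as their sequences show, again with the seed in capitals.
miR-302c-5p: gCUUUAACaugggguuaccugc
miR-449a-5p: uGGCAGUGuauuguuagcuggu
The values behind these means differed in kind from those of miR-210-3p. Without Dox miR-302c-5p had 17, 4, 5 and 306 RPM, beside 0, 6, 0 and 24 with it, so that its mean depends on libraries listed at 0. miR-302a-5p had 41, 118, 187 and 4019 RPM without Dox, beside 25, 91, 130 and 177 with it, and was 1.68-fold, 1.30-fold, 1.44-fold and 22.7-fold lower, so its gap lay mainly at day 4. miR-449a-5p was 2-fold lower or more on each day, but at 12, 9, 36 and 14 RPM against 3, 2, 6 and 2 its intervals reached past no change at days 0, 1 and 4. The first place of miR-210-3p by this mean, at -2.48 beside -2.47 for miR-302c-5p, depended on the setting: it ranked 2 with a pseudocount of 0.5 and under both other scalings, and 3 without the day 1 or the day 4 pair.

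miR-210-5p, the strand that is mostly discarded after the hairpin is cut, had deposited values of 36, 0, 9 and 19 RPM without Dox, beside 0, 0, 0 and 2 with it. That is 15, 0, 4 and 7 implied reads against 0, 0, 0 and 1. Libraries with Dox were thus at or below those without it on each day, but day 1 without Dox was also at 0, so the treatments overlapped. Taking 3 reads as the limit, a count of 0 allows up to 8.20 RPM at day 0 with Dox, 5.79 at day 1 with Dox, 6.38 at day 2 with Dox and 6.67 at day 1 without Dox. At day 0, with 15 reads against 0, the exact 95% counting interval of the ratio put miR-210-5p at 3.18-fold lower or more with Dox. At day 2, with 4 reads against 0, the interval ran from 0.736 upward and included no change. At day 4 it was 10.5-fold lower, with a counting interval from 1.34 to 471 that shows how little 1 read fixes. At day 1 no ratio can be given. With a mean of 8.25 RPM miR-210-5p was under the level for ranking.

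The share of miR-210 reads that came from the 5p arm can be read within a library and needs no scaling between libraries. Without Dox it was 3.61% (exact binomial 95% interval 2.04 to 5.89) at day 0, 0 at day 1 (exact upper limit 2.98%), 2.78% (0.762 to 6.96) at day 2 and 1.92% (0.774 to 3.91) at day 4. With Dox it was 0 at days 0, 1 and 2, with exact upper limits of 10.3%, 6.49% and 5.601%, and 2.78% (0.0703 to 14.5) at day 4. Summed over days, 26 reads of the 5p arm stood beside 1020 of the 3p arm without Dox, a share of 2.49% (1.63 to 3.62), and 1 beside 188 with Dox, a share of 0.529% (0.0134 to 2.91). The intervals overlap, but overlap is not a test, and a difference in arm use was not tested. These sums also pool days whose shares without Dox ran from 0 to 3.61%. The 5p share was at most 3.61% in any of the 8 libraries.

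Over time the 2 treatments did not run in parallel. Without Dox, miR-210-3p was 3.57-fold lower at day 1 than at day 0 (counting interval 2.91 to 4.41), and 2.97-fold higher at day 4 than at day 2 (2.44 to 3.64). Among the 499 miRNAs the step from day 0 to day 1 was the 11th lowest without Dox, a log2 difference of -1.84 where the median miRNA was at 0.32. The step from day 2 to day 4 was the 52nd highest, 1.57 against a median of 0.17. With Dox the same steps were 0.19 (median 0.36) and -1.05 (median 0.18), the latter the 43rd lowest. Taking days 0 and 4 against days 1 and 2, miR-210-3p was higher at the outer days by 1.70 without Dox, rank 17 from the highest, and lower by a log2 difference of -0.62 with Dox, rank 399.

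The days were tested across all 839 miRNAs that had at least 1 RPM in at least 2 libraries, with treatment in the model. miR-210 was chosen on its Dox ratios, which compare libraries within a day, but with all 8 of its values in view, so the day tests are not independent evidence on it. miR-210-3p did not pass at any day against day 0 with limma. Its log2 differences were -0.82 at day 1 (SE 0.43, adjusted p = 0.267), -0.50 at day 2 (SE 0.43, adjusted p = 0.502) and -0.24 at day 4 (SE 0.43, adjusted p = 0.754), over 8 libraries. limma draws this SE mostly from the spread of all miRNAs, so it is not the spread of miR-210-3p alone. The Dox log2 ratio of miR-210-3p had an SD over the 4 days of 1.36, which this SE reflects only in part. Without the robust option the limma adjusted p were 0.569, 0.673 and 0.854. miR-210-5p did not pass either with limma, at -2.60 (SE 1.19, adjusted p = 0.185), -0.94 (SE 1.19, adjusted p = 0.677) and 0.35 (SE 1.19, adjusted p = 0.885). For miR-210-5p the SE has the same limit, with an SD of its Dox log2 ratio over days of 2.15. Of all 839 miRNAs 8.1%, 17.3% and 25.7% passed at days 1, 2 and 4. In simulated data the fit called 24.5% of 2-fold day 4 changes, so a change of that size can be missed. The test averages over both treatments, whose courses for miR-210-3p differed as given above. RPM also shift between days: the median of all miRNAs was 0.37, 0.48 and 0.56 above day 0 at days 1, 2 and 4. Scaled outside the abundant miR-290 cluster, it was still 0.31, 0.33 and 0.12 above day 0. It was near 0 (0.022, 0.027 and 0.0067) after median-of-ratios scaling, which centres the typical miRNA by design. Under that scaling miR-210-3p was at -1.20, -0.97 and -0.84 (limma adjusted p = 0.132, 0.174 and 0.218).

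The profile of miR-210-3p over the 8 libraries was compared with that of each other miRNA averaging 10 RPM or more by Pearson's r on log2(RPM + 1). The libraries share days and treatments, so r describes them and has no p. The profile also holds the Dox difference by which miR-210 was chosen. A high or low r of a miRNA that differs with Dox therefore follows in part from that choice. The 5 highest were miR-203-3p (r = 0.85), miR-205-5p (0.80), miR-449a-5p (0.76), miR-200a-3p (0.75) and miR-874-3p (0.74), where the median of all was -0.05 and the 95th percentile 0.53. miR-203, miR-205 and miR-200a are known from epithelial cells, with miR-203 and miR-205 high in skin. miR-203-3p stood at 126, 98, 109 and 105 RPM without Dox and at 90, 85, 72 and 65 with Dox, a far smaller gap than that of miR-210-3p. miR-205-5p stood at 167, 125, 140 and 270 RPM without Dox and at 85, 89, 106 and 135 with Dox, so the treatments overlapped. miR-449a-5p and miR-874-3p averaged 10.5 RPM each, near the level for entry. The 5 names were not stable: 1 of 5 was shared without the day 0 pair and 1 of 5 without the day 1 pair, 3 without the day 2 pair, 2 without the day 4 pair and 3 with Spearman's rho in place of r. The r of miR-203-3p stayed between 0.75 and 0.88 in these 5 alternatives and under median-of-ratios scaling.

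By Pearson's r the 3 lowest correlations were larger in size than the highest. They were miR-196b-5p (r = -0.94), miR-196a-5p (-0.94) and miR-582-3p (-0.91), all of which were higher with Dox. Spearman's rho for these was -0.74, -0.76 and -0.90, beside 0.90 for miR-200a-3p, so the order in size depended on the measure. miR-196a and miR-196b lie in Hox clusters and are near-identical copies with 1 seed, as printed here, so they count as 1 signal.
miR-196a-5p: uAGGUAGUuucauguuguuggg
miR-196b-5p: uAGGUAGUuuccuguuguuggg
miR-196a-5p stood at 487, 665, 626 and 422 RPM without Dox and at 948, 1006, 1032 and 879 with Dox. Without Dox it was lowest at days 0 and 4, where miR-210-3p was highest. miR-582-3p, encoded on chromosome 13, stood at 177, 225, 294 and 149 RPM without Dox and at 336, 545, 517 and 567 with Dox. Every Dox library was above every library without Dox for both of them. The same held for 1.4% (7 of 499) of the miRNAs averaging 10 RPM or more, both of them included. For miR-196a-5p r was -0.69 under median-of-ratios scaling.

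**Figure D3:**
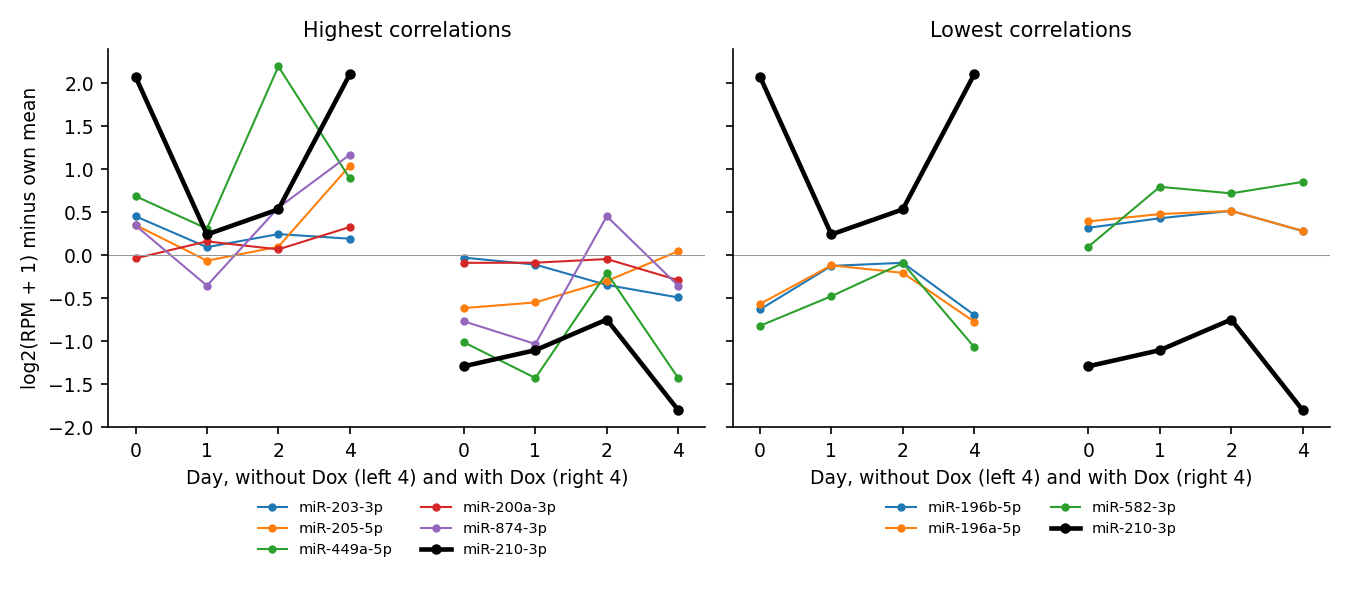
log2(RPM + 1) minus each miRNA's own mean over the 8 libraries, by day without Dox (left group of each panel) and with Dox (right group), for miR-210-3p (black) and the 5 miRNAs with the highest (left panel) and 3 with the lowest (right panel) Pearson correlation with it. The coloured lines of the left panel lie mostly above 0 without Dox and below 0 with Dox, and those of the right panel the reverse, with a smaller span than miR-210-3p.

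Other miRNAs linked to hypoxia in the literature were compared next, to see whether the Dox difference of miR-210 was shared. The Dox comparison took all 8 libraries with day in the model, and 1.91% of the 839 miRNAs passed in limma (1.31% higher and 0.596% lower with Dox), with a median log2 change of 0.03. Both arms of miR-210, which the choice fixes, are not counted in the lists below. Of 20 miRNAs reported to rise in hypoxia, 0 were higher and 0 lower, with a median of 0.05, and a median of -0.013 when day 2 was left out. With no adjustment, limma gave 3 of the 20 higher and 0 lower at a p under 0.05, where 88 of all 839 miRNAs met that p in either direction. These were miR-192-5p (log2 change 0.69, SE 0.24, adjusted p = 0.105), miR-21a-5p (0.43, SE 0.16, adjusted p = 0.185) and miR-26a-5p (0.35, SE 0.18, adjusted p = 0.474), the first and last named after their values were seen. Changes in the list ran from -0.45 for miR-322-5p, the mouse counterpart of a HIF-stabilising human miRNA, to 0.69 for miR-192-5p.

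The 4 most abundant miRNAs of that list gave levels well above miR-210-3p. miR-21a-5p, a widely expressed miRNA, stood at 8428, 20472, 19709 and 36898 RPM without Dox and at 14675, 19676, 27007 and 53151 with Dox, higher with Dox on 3 of the 4 days. miR-103-3p and miR-107-3p, near-identical miRNAs whose rows may share reads, had log2 changes of -0.09 (SE 0.17) and -0.10 (SE 0.17). miR-103-3p stood at 6753, 11356, 8972 and 14704 RPM without Dox and at 7448, 10987, 11109 and 8632 with Dox. miR-106a-5p, of the miR-17 family, had a log2 change of -0.13 (SE 0.17).

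Of 9 miRNAs reported to fall in hypoxia or to target HIF subunits, 0 were higher and 0 lower in limma, also 0 of 9 at an unadjusted p under 0.05 (88 of 839 over all miRNAs), with a median of -0.20 and estimates from -0.39 for miR-18a-5p to 0.15 for miR-15b-5p. Its most abundant members were miR-20a-5p (log2 change -0.27, SE 0.17), miR-17-5p (-0.14, SE 0.17), miR-200b-3p (-0.35, SE 0.18) and miR-20b-5p (0.05, SE 0.19). miR-17, miR-20a and miR-20b are near-identical relatives reported to target HIF subunits. miR-20a-5p stood at 8523, 10821, 14917 and 12533 RPM without Dox and at 12499, 8197, 10408 and 7605 with Dox, higher with Dox at day 0 and lower on the later days. No member of either list passed in limma-voom on the implied reads or in any other alternative run. Some of these runs could hardly call a member. Of all miRNAs, 0 passed without the robust option, 0 without the day term and 1 without the day 2 pair. The 29 estimates lay between -0.45 and 0.69, against a mean of -2.48 for miR-210-3p, and the difference between miR-210-3p and the lists was not tested. Since miR-210 was chosen for its low Dox ratio, a wide gap to miRNAs not chosen that way follows from the choice.

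**Figure D4:**
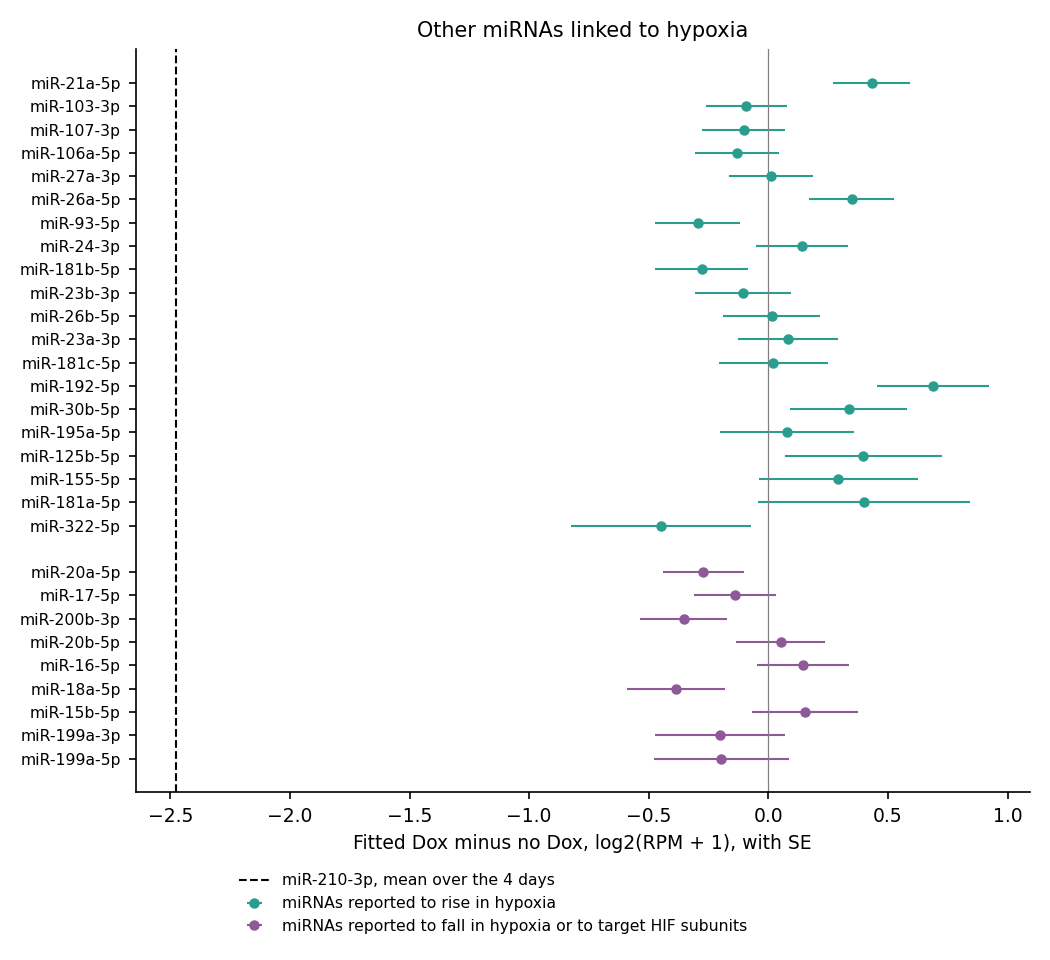
Fitted Dox minus no Dox difference in log2(RPM + 1), with its SE, for 20 miRNAs reported to rise in hypoxia (green) and 9 reported to fall in hypoxia or to target HIF subunits (purple), each list ordered by abundance from the top; the dashed line is the mean of miR-210-3p over the 4 days. The estimates lay between -0.45 and 0.69, and the dashed line is at -2.48, for a miRNA chosen by its low Dox ratio. For most miRNAs the SE comes from a variance trend over all miRNAs and not from their own spread.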

How the data were processed

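Small RNA libraries were made from TRIzol-isolated total RNA with an NEBNext kit, per the labels' protocols. The deposited values are scores in 1 table: whole numbers that sum to nearly the same total in each library, read here as rounded RPM. Bowtie and mm10 are named in the submitters' processing notes. The counting tool, the annotation and the treatment of reads that match more than 1 miRNA are not stated there. A row without values, named as a sum, was left out.

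The reads behind each value were worked out as the only total between 100000 and 700000 for which every value, within 0.5 RPM, is a whole number of reads that sum to that total. It was found for 8 of 8 libraries and tested on simulated data. Between 1.85 and 2.76 RPM stand for 1 read. Ratios have exact conditional binomial intervals and shares Clopper-Pearson intervals, at 95% confidence. PCR copies are not independent molecules, so both cover counting error only. A count of 0 was given a limit of 3 reads.

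The tests had been planned for counts or normalized values, and the table required the latter. limma 3.58.1 in R 4.3.3 was fitted to log2(value + 1) of 839 miRNAs, with treatment and day as a factor, a variance trend, the robust option and Benjamini-Hochberg adjustment at 0.05. Fold changes on this scale understate those of low miRNAs. The fit left 3 residual degrees of freedom. For all except 39 miRNAs the variance used was that of the trend alone, not the miRNA's own. Their SE and p-values therefore reflect the spread typical of miRNAs of like abundance between these libraries. That spread may be technical, and the spread of a given miRNA can be larger than its SE shows. The model pairs the treatments by the day in the labels, which name no pairing of cultures. The fit was tested on simulated data with an assumed dispersion of 0.05 and the same Dox effect on every day, unlike miR-210-3p. It called 71% of 2-fold and 97.5% of 4-fold Dox changes, with 6 and 11 false calls. For day 4 it called 24.5% and 88.5%, with 0 and 8 false calls. Python 3.11.15 and RNAfold 2.7.2 were used for the rest.

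Sequences were matched by name to the RefSeq table for 926 of 1099 miRNAs. Named were miR-210, seed sharers, the 5 lowest mean Dox ratios after it, the 5 highest and 3 lowest correlations, and the 4 most abundant members of each list with any that passed. Members, lists and rules were chosen with earlier results of these data known. Alternatives were other pseudocounts, filters, scalings and variance options, limma-voom, no day or treatment term, and each day left out. Scaling outside the miR-290 cluster in the fits was added after seeing the data.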

Additional observations from a re-analysis of the deposited data

Results flagged for a closer look

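miR-210-3p moved in opposite directions over time without and with Dox in 4 comparisons of days. Each rests on 1 library per condition, and the difference was not tested. From day 0 to day 1 its log2 change was -1.84 without Dox and 0.19 with Dox, a difference of 2.02. From day 0 to day 2 the changes were -1.54 and 0.54, a difference of 2.09. From day 0 to day 4 they were 0.03 and -0.51, a difference of -0.54, and both counting intervals of that step included no change. From day 2 to day 4 they were 1.57 and -1.05, a difference of -2.62. In that last step both counting intervals excluded no change, at 2.44 to 3.64 times without Dox and 0.305 to 0.728 times with Dox. In the Dox libraries the steps from day 0 to days 1 and 2 had counting intervals that included no change.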

How the results depend on the processing

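The mean Dox log2 ratio of miR-210-3p lay between -2.87 and -2.00 when each day was left out, and between -2.50 and -2.43 with other pseudocounts and scalings. That of miR-210-5p, which rests on 26 reads without Dox and 1 with it, lay between -3.76 and -2.02 without single days, and was -3.35 with a pseudocount of 0.5 and -1.57 with 5. By that mean miR-210-3p ranked 2 with a pseudocount of 0.5, with median-of-ratios scaling and scaled outside the miR-290 cluster, and between 1 and 3 without single days. The day differences of miR-210-3p passed in none of the alternatives run, with adjusted p from 0.0639 to 0.986. For miR-210-5p, day 1 passed with limma-voom (log2 -3.11, adjusted p = 0.0244, where the other alternatives gave up to 0.398), and day 4 turned to -0.14 with a pseudocount of 5, -0.038 with median-of-ratios scaling and -0.27 with limma-voom.

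Over all miRNAs, 16 passed for Dox, 0 without the robust option (71 at an unadjusted p under 0.05), 0 without the day term, which is the fit with no replicate block (25 at an unadjusted p under 0.05), and between 1 and 11 with a day left out, the fewest without the day 2 pair. For day 1 68 passed, against 13 without the robust option, 44 without the treatment term and between 27 and 109 with a day left out. For day 2 145 passed, against 72 and 93 in those 2 fits. Of the 5 miRNAs most like miR-210-3p, 3 were shared with Spearman's rho and between 1 and 3 with a day left out. The median of the list reported to rise in hypoxia lay between -0.013, without the day 2 pair, and 0.151, without the day 0 pair. The planned promoter search was not run, since no promoter entry was at hand. The causes of these shifts were not tested. Low reads limit miR-210-5p and the arm shares, and 1 library per condition limits every value.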
